A study of Mus musculus with 8 samples.

Results

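The PYHIN or p200 family is a group of interferon-inducible genes that lie side by side on mouse chromosome 1. The genes described here are 8 of them: Ifi203, Ifi204, Ifi205, Ifi207, Ifi209, Ifi211, Mndal and Aim2. A gene was measured if the transcript name of an array probe led to its symbol in the RefSeq table. That held for 6 of the 8 genes, through 9 of the 55681 probes that were not controls: Ifi209 had 3 probes, Ifi207 had 2, and Ifi204, Ifi211, Mndal and Aim2 had 1 each. No probe was matched to Ifi203 or Ifi205 through that table, and their levels are not analysed here. The table does not hold every transcript name on the array, so a probe for either gene may be among those left unnamed. The set was chosen by family membership with results of these arrays in view, namely the differences between LPS+HF and LPS cells and those from control, so levels and differences are given as a description, with no p-value.

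Messenger RNA of BV-2 cells, an immortalised mouse microglial line, was measured on 8 single-colour arrays, 2 for each of 4 groups. Control cells received nothing. LPS cells received lipopolysaccharide (LPS), the endotoxin of Gram-negative bacteria, at 1 µg/mL. HF cells received the hexane fraction (HF) of Amauroderma rugosum, a mushroom, at 100 µg/mL, and LPS+HF cells received both. All groups were harvested after 24 h of treatment. The study calls the arrays of a group biological replicates, but whether they came from separate cultures is not known, so each SE may cover technical spread only. In such bulk samples fewer expressing cells and less RNA per cell cannot be told apart.

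Most PYHIN proteins pair a pyrin domain, which binds other pyrin domains, with 1 or more HIN domains, which bind DNA. Aim2 is the family's inflammasome receptor: it binds DNA in the cytosol and gathers the adaptor Pycard (ASC) and caspase 1, which matures interleukin 1 beta. Ifi204, the mouse gene most often set beside human IFI16, has been linked to interferon production through Sting1 and to macrophage differentiation. Several of the others act in the nucleus on transcription and growth, and many are induced by type I interferon through the response element that interferon-activated factors bind. LPS is sensed by Toll-like receptor 4, which in macrophages and microglia leads to interferon beta and thereby to interferon-induced genes.

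Promoter sequences are shown first, to give the places where letters of such a response element lie in this family. RefSeq promoter entries (GRCm38.p6, 250 bases before to 50 bases after an annotated start) were found for 7 of the 8 genes, all but Ifi204, and for 5 other genes of the cluster, 14 entries in all. The core searched was GAAANNGAAA, on both strands, where N is any base. It lay in 10 of the 14 entries and in 9 of the 12 genes. Of all 32851 promoter entries of the table, 3.44% held it. The lines below give 50 bases around the core on the strand of the gene, 5′ to 3′, with the core in capitals.
Ifi211, chr1:173913049-173913098, minus strand: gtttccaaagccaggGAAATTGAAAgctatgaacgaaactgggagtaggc
Ifi205, chr1:174031855-174031904, minus strand: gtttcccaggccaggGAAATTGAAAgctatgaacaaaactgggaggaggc
Ifi207, chr1:173741816-173741865, minus strand: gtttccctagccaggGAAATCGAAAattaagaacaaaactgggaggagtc
Mndal, chr1:173880189-173880238, minus strand: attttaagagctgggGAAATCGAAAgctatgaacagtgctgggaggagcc
Ifi203, chr1:173942493-173942542, minus strand: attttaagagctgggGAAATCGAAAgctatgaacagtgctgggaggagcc
Ifi208, chr1:173673592-173673641, plus strand: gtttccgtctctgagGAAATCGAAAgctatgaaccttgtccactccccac
Ifi209, chr1:173630765-173630814, plus strand: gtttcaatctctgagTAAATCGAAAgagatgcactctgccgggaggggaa

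The stretches of Mndal and Ifi203 were identical over all 50 bases, and those of Ifi211 and Ifi205 over 46 of 50. The Ifi207 and Ifi211 stretches shared 41 of 50. Ifi209 had no exact core. The stretch shown for it is the place most like the stretch of Ifi214, another gene of the cluster, with 45 of 50 bases identical, and it differs from the core by G1T, counted from 1 at the core's 5′ end. A core with at most 1 base off is common: 35.4% of all promoter entries hold one. Aim2 had no match to the core in its window.

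The core sat close to the annotated start in most of these genes. It began 35 bases before the start in Ifi203, 36 in Mndal, 37 in Ifi211, 41 in Ifi207 and 58 in Ifi208, and 134 in Ifi205. A longer stretch, GAAATNGAAAGCTATGAAC, was read from these promoters themselves: it is the core with the 9 bases that most often follow it. It lay in 7 entries of 7 genes, Ifi203, Ifi205, Ifi206, Ifi208, Ifi211, Ifi213 and Mndal, and in 0 entries outside the family. Ifi207 has the core without those 9 bases. The gamma-activated site TTCNNNGAA lay in 1 of the 14 entries, that of Ifi202b, against 8.30% of all entries, and the NF-kB-like site GGGNNNNNCC in 6 of the 14 against 50.8%; each was searched on both strands. These are matches of letters in a window. No binding was measured, and the windows of genes with 2 starts can overlap.

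**Figure D1:**
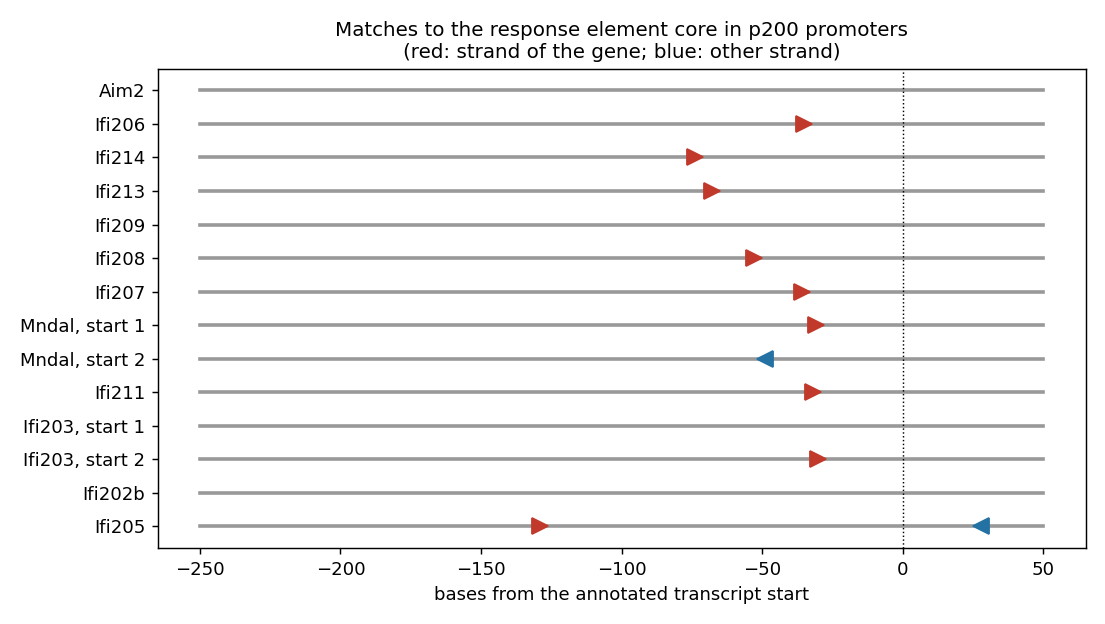
Promoter windows of 12 genes of the p200 cluster (14 entries, horizontal lines) by distance in bases from the annotated start, with arrowheads at matches to the core, red on the strand of the gene and blue on the other strand. Matches on the strand of the gene begin 35 to 79 bases before the start in 8 genes and 134 bases before it in Ifi205, and Aim2, Ifi209 and Ifi202b have none.

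Because Ifi211 changed with both treatments, the 250 bases before its start are given in full (chr1:173913047-173913296, minus strand, core in capitals).
Ifi211 upstream: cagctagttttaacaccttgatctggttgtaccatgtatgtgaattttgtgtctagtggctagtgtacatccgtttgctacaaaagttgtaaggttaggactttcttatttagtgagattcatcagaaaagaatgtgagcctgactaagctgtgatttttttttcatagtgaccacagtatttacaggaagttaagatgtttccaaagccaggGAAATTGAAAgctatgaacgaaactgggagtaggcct

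Levels are log2 signals minus the array's 75th percentile, so 0 is the brightness that 75% of probes on that array do not exceed, and 1 unit is a doubling. The level of one probe cannot be set against that of another, so genes are compared only by their differences between groups. Before scaling, the 75th percentile was 247 to 286 on arrays without HF and 347 to 527 on arrays with HF. Control replicate 1 was uneven: its repeated probes varied by 48.9% against 3.77% to 8.06% elsewhere, and the quality report marks 2 arrays for evaluation, this one and HF replicate 1. HF-treated samples took row 2 of the slide and the rest row 1, while LPS-treated samples took columns 3 and 4. Slide row therefore cannot be told apart from HF, nor slide column from LPS. All 8 microglia and macrophage markers, Ptprc and Csf1r among them, were above background on all 8 arrays, as were some markers of other brain and lymphoid cells, Aqp4, Snap25, Mog, Mbp and Cd3e among them, while Slc1a2, Syt1 and Ncr1 were above it on none.

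Of the 6 measured genes, 5 had one pattern and Aim2 another. On the arrays of each group, Ifi204, Ifi207, Ifi209, Ifi211 and Mndal were highest in LPS cells and lowest in HF cells, with LPS+HF cells in between, and Aim2 was lowest in LPS cells. For Ifi209 the HF and LPS+HF arrays were all below background, so their order to each other carries no weight. Both LPS+HF arrays lay below both LPS arrays for these 5 genes and above them for Aim2; among all 22460 genes tested, 41.3% were separated in the lower and 32.6% in the higher direction. Both LPS arrays lay above both control arrays for the same 5 genes, beside 24.1% of all genes, and below them for Aim2, beside 33.0%. Both HF arrays lay below both control arrays for the 5 genes, beside 25.8%, though for Ifi209 only control replicate 2 was above background. Both LPS+HF arrays lay above both HF arrays for Ifi204, Ifi207, Ifi211 and Mndal, beside 18.2%. On the second probe of Ifi207 the LPS+HF and HF arrays overlapped. For Aim2 the arrays overlapped in the last 2 comparisons.

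**Figure D2:**
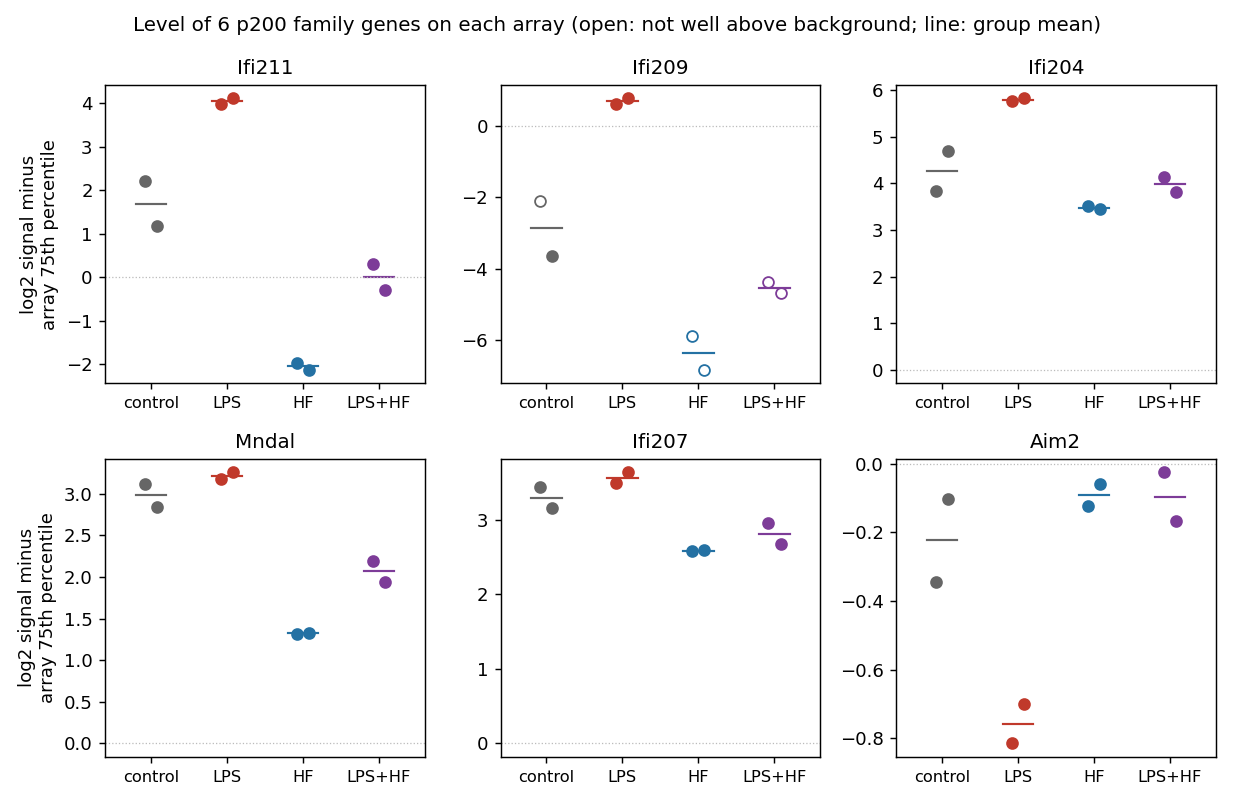
Level of each measured gene (log2 signal minus the array's 75th percentile, 1 panel per gene with its own scale) on the 2 arrays of each group; filled points are well above background, open points are not, and lines are group means. LPS arrays are highest in every panel except Aim2, where they lie lowest, and HF arrays are lowest in the same 5 panels.

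Ifi211, for which the reference table lists Mnda among older names, responded to both treatments. Its level was 2.20 and 1.18 on the control arrays, 3.98 and 4.11 on the LPS arrays, -1.97 and -2.13 on the HF arrays, and 0.30 and -0.30 on the LPS+HF arrays. In processed signal units this ran from 88.7 on HF replicate 1 to 4943 on LPS replicate 2. The order was LPS, control, LPS+HF and HF, and no neighbouring groups overlapped. All 8 arrays were above background.

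The difference of Ifi211 between LPS and control was 2.36 ± 0.37 log2 (SE, 2 arrays per group), or 5.13-fold. Each SE here comes from the limma fit, which pools a gene's spread over all 4 groups and draws it towards that of other genes. It is therefore not the spread of the compared groups alone. HF minus control was -3.74 ± 0.37 log2, or 13.3-fold lower, and LPS+HF minus LPS was -4.04 ± 0.37 log2, or 16.5-fold lower. LPS+HF stood above HF by 2.05 ± 0.37 log2. The interaction term, which compares the HF difference with and without LPS, was -0.31 ± 0.52 log2, less than its SE. With the normexp background correction, the HF minus control difference was -2.05, while the difference between LPS+HF and LPS was -3.83.

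Ifi209, which the reference table also calls Pyhin1, had its highest signal in LPS cells. Its brightest probe, A_55_P2035509, read -2.09 and -3.63 on the control arrays, 0.61 and 0.77 on the LPS arrays, -5.89 and -6.82 on the HF arrays, and -4.38 and -4.67 on the LPS+HF arrays. It was well above background on both LPS arrays and on control replicate 2 only. The spots of this probe on control replicate 1 and HF replicate 1 lie in regions that a spatial correction masks. The 5 arrays below background carry only an upper bound.

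LPS minus control for Ifi209 was 3.55 ± 0.54 log2, with 1 of the 2 control arrays above background, and 4.32 without control replicate 1. LPS+HF minus LPS was -5.21 ± 0.54 log2 as measured, with both LPS+HF arrays below background. The "at least" fold, computed from the lowest above-background signal of each array, was 36.6. It is not a firm minimum, since this probe may need a higher signal to be told from background. On LPS+HF replicate 2 the probe's signal of -4.67 was used, although it was below background. The same caution holds for the other folds given as "at least". For HF against control no fold is given, because only control replicate 2 was above background; the measured difference was -3.49 ± 0.54 log2, -2.72 without control replicate 1, and -0.39 with the normexp background correction. For LPS+HF against HF no fold is given, because both groups were below background. With normexp the LPS+HF minus LPS difference was -2.97.

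The other probes of Ifi209 were also highest in LPS cells, with less signal. A_55_P2036357 read -5.81 and -5.43 in control, -2.02 and -2.24 in LPS, -6.35 and -6.55 in HF, and -6.39 and -6.52 in LPS+HF cells. A_55_P1974178 read -3.09 and -6.46 in control, -1.68 and -1.94 in LPS, -5.98 and -6.81 in HF, and -4.74 and -6.79 in LPS+HF cells. Both were above background on the LPS arrays only, so the other 3 groups have no order among them. LPS was above control by at least 5.28-fold on the first and at least 3.49-fold on the second, and above LPS+HF by at least 5.69-fold and at least 7.12-fold.

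Ifi204, the family's DNA sensor linked to Sting1, rose with LPS and was lower in LPS+HF than in LPS cells. Its level was 3.83 and 4.70 in control, 5.77 and 5.82 in LPS, 3.51 and 3.45 in HF, and 4.15 and 3.82 in LPS+HF cells. The LPS arrays stood above all 6 others, and the LPS+HF arrays overlapped the control arrays. LPS minus control was 1.53 ± 0.30 log2, or 2.89-fold, and LPS+HF minus LPS was -1.81 ± 0.30 log2, or 3.51-fold lower. With the normexp background correction these were 2.52 and -1.88 and did not pass; neither passed with median scaling or without the filter on dim probes. HF minus control was -0.79 ± 0.30 log2, did not pass, and was 0.02 with normexp. LPS+HF minus HF was 0.50 ± 0.30 log2 and the interaction -1.02 ± 0.42.

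Mndal, which encodes a nuclear protein with a growth-suppressing role, was lower with HF with and without LPS, and differed little between LPS and control. Its level was 3.12 and 2.84 in control, 3.17 and 3.26 in LPS, 1.32 and 1.33 in HF, and 2.19 and 1.94 in LPS+HF cells. HF minus control was -1.66 ± 0.16 log2, or 3.15-fold lower, and LPS+HF minus LPS was -1.15 ± 0.16 log2, or 2.22-fold lower. LPS minus control was 0.23 ± 0.16 log2, with arrays that did not overlap by a narrow margin. LPS+HF minus HF was 0.74 ± 0.16 log2.

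Ifi207, a nuclear member of the family, had the same order of groups. Its brighter probe, A_55_P2081105, read 3.44 and 3.16 in control, 3.49 and 3.64 in LPS, 2.58 and 2.59 in HF, and 2.96 and 2.67 in LPS+HF cells. HF minus control was -0.71 ± 0.17 log2 and LPS+HF minus LPS -0.75 ± 0.17 log2, and neither passed. LPS minus control was 0.27 ± 0.17 log2, and -0.04 with the normexp background correction. The second probe, A_51_P325281, read 1.49 and 0.23 in control, 0.75 and 0.92 in LPS, -0.28 and -0.85 in HF, and -0.54 and -0.48 in LPS+HF cells. On it the control and LPS arrays overlapped, and LPS+HF minus LPS was -1.34 ± 0.42 log2.

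Aim2, the inflammasome receptor, moved the other way and within a narrow range. Its level was -0.34 and -0.10 in control, -0.81 and -0.70 in LPS, -0.12 and -0.06 in HF, and -0.03 and -0.17 in LPS+HF cells. The LPS arrays lay below all 6 others, and the other 3 groups overlapped. LPS minus control was -0.53 ± 0.15 log2, or 1.45-fold lower, and LPS+HF minus LPS was 0.66 ± 0.15 log2, or 1.58-fold higher; neither passed. HF minus control was 0.13 ± 0.15 log2, or -0.31 with the normexp background correction, and LPS+HF minus HF was -0.00 ± 0.15.

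**Figure D3:**
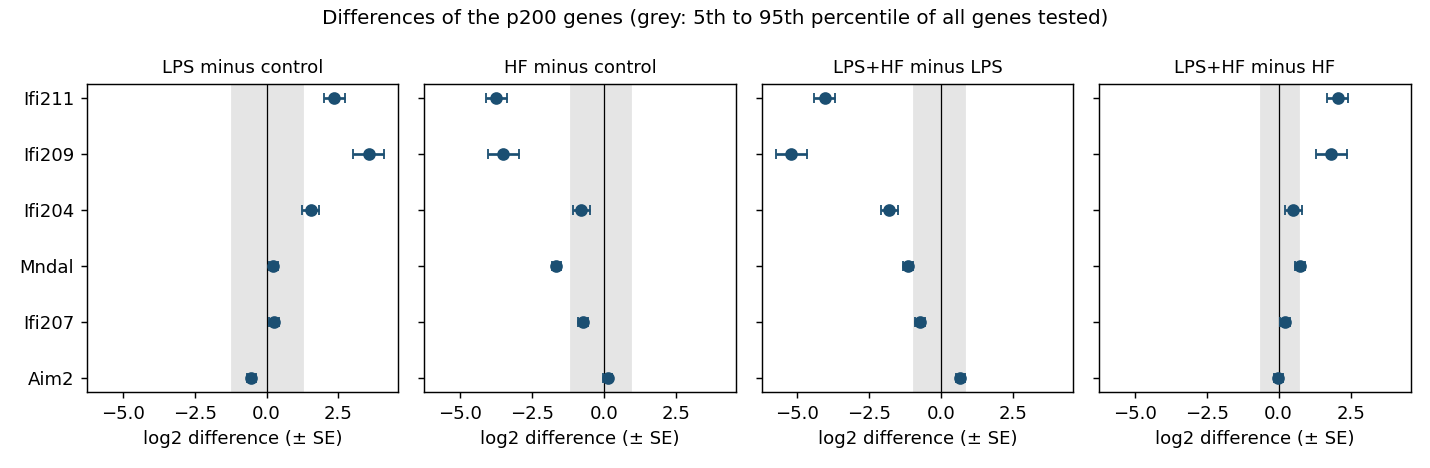
Differences of the 6 measured genes (points, log2, bars ± SE) in 4 comparisons; the grey band spans the middle of the 22460 genes tested, as labelled. Ifi211, Ifi209, Ifi204 and Mndal lie left of the band for LPS+HF minus LPS, and Aim2 and Ifi207 lie within it.

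A gene passed in limma at an adjusted p under 0.05 over all 22460 genes. In LPS minus control 3 of the 6 measured genes passed, all higher (Ifi204, Ifi209 and Ifi211), beside 4.77% of all genes called higher. Between HF and control 2 passed, both lower (Ifi211 and Mndal), beside 0.748%. Between LPS+HF and LPS 4 passed, all lower (Ifi204, Ifi209, Ifi211 and Mndal), beside 3.25%. Ifi209 was kept by the filter on dim probes only because both its LPS arrays were above background. Its calls against LPS, and its part in the medians below, therefore follow in part from that filter. The genes were chosen for these contrasts, so nothing is read from the counts. Between LPS+HF and HF 0 of 6 passed, beside 1.28% of all genes called, and 3 had an unadjusted p under 0.05, as had 9.32% of all genes. In the interaction 0 passed, beside 0.0534%, and 2 had an unadjusted p under 0.05, as had 11.6% of all genes. The comparisons share arrays: both with control share the control arrays, and both with LPS share the LPS arrays.

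The median of the 6 differences was 0.90 for LPS against control, where that of all genes was -0.08, and -1.22 for HF against control, where it was -0.07. It was -1.48 for LPS+HF against LPS (all genes -0.07) and 0.62 for LPS+HF against HF (all genes -0.08). Scaling to each array's median instead shifted every gene's difference by 0.35, 0.39, 0.15 and 0.11 log2 in these comparisons. LPS minus control was then -0.19 for Aim2, 0.61 for Ifi207 and 0.58 for Mndal, where all genes had a median of 0.27. The counts of genes passed rest on few arrays. They changed when 1 array was left out, as did the share of all genes called, and are not given for such fits. Over the fits without 1 array, LPS minus control ran from 1.09 to 1.96 log2 for Ifi204, 2.78 to 4.32 for Ifi209 and 1.85 to 2.87 for Ifi211. HF minus control ran from -4.25 to -3.22 for Ifi211 and -1.79 to -1.52 for Mndal. LPS+HF minus LPS ran from -1.98 to -1.65 for Ifi204 and -5.36 to -5.07 for Ifi209. It ran from -4.34 to -3.75 for Ifi211 and -1.27 to -1.03 for Mndal. No member difference that passed changed sign in any of these fits.

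Among the other genes of the cluster, only Ifi208, whose product has a pyrin domain, was bright enough to be tested. Its brightest probe, A_55_P2001233, read 1.53 and 2.35 in control, 2.60 and 2.62 in LPS, 2.63 and 2.60 in HF, and 2.40 and 2.31 in LPS+HF cells. LPS minus control was 0.67 ± 0.27 log2 and HF minus control 0.68 ± 0.27 log2 (limma adjusted p = 0.16 and 0.24), and LPS+HF minus LPS was -0.26 ± 0.27 log2 (adjusted p = 0.63). The interaction was -0.94 ± 0.38 log2 (adjusted p = 0.43). Its promoter, shown above, holds the core and the longer stretch.

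The 4 probes of Ifi208 disagreed. A_55_P2036627 was above background on both LPS arrays only, at -3.32 and -3.14, and LPS exceeded LPS+HF on it by at least 2.66-fold. A_55_P2181222 stayed between -1.35 and -0.85 on all 8 arrays, and A_66_P128761 was above background on none. The probes of Ifi202b and Ifi213 were also above background on none, and that of Ifi214 on LPS replicate 2 and HF replicate 1 only. Paralogues of this family are alike in sequence and probe sequences were not used here, so whether a probe also captures a paralogue was not tested.

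**Figure D4:**
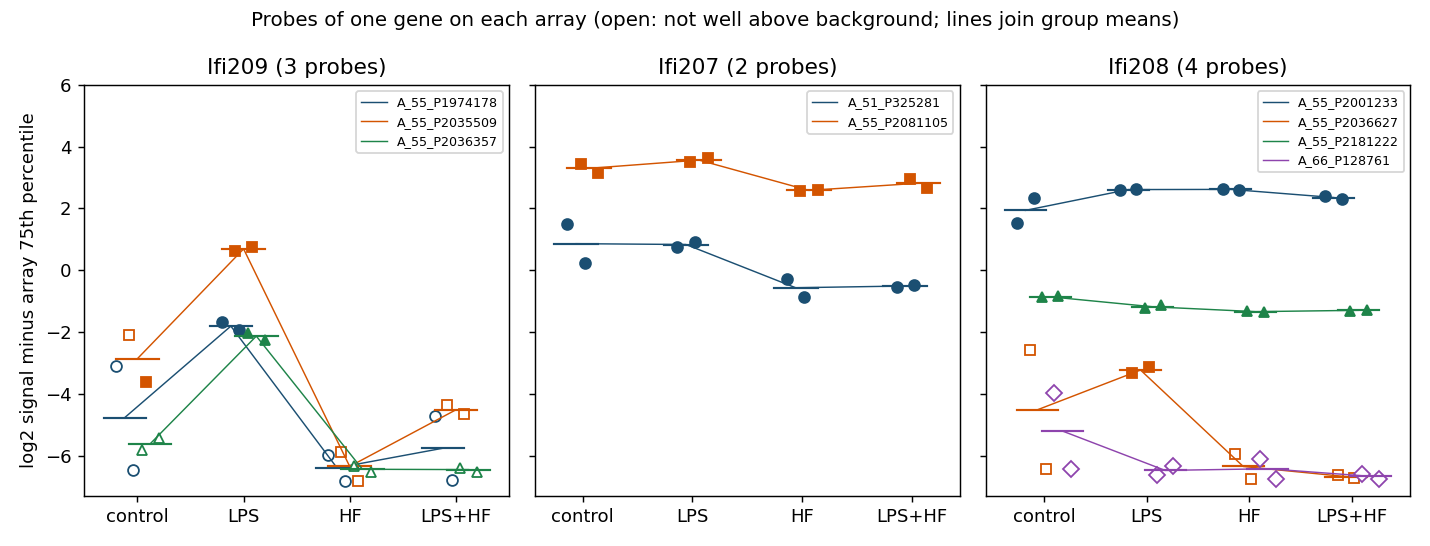
Every probe of Ifi209, Ifi207 and Ifi208 (log2 signal minus the array's 75th percentile) on the 2 arrays of each group, with filled points well above background, open points not, and lines joining group means. The 3 Ifi209 probes peak in LPS cells, both Ifi207 probes are lower with HF, and the 4 Ifi208 probes differ in level and pattern.

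Genes whose levels followed each family member most closely over the 8 arrays were ranked by Pearson's r, given as a description, since the arrays form 4 groups of 2. Ifi211 was followed by Prss46, a serine protease (r = 0.995), Usp18, which removes the ubiquitin-like modifier Isg15 (0.995), and Pstpip1, a cytoskeletal adaptor (0.993). Ifi209 was followed by the lectin receptors Clec4n (0.995) and Clec4b1 (0.994) and the surface receptor Cd300ld3 (0.993). The probe used for Ifi209 was above background on 3 of the 8 arrays only, so these r values rest largely on signals below background. Ifi207 was followed by Ifi47, an interferon-induced GTPase (0.995), Mrap (0.987) and Axin2 (0.985). Ifi204 was followed by Por (0.993), Slc6a13 (0.992) and Shisa5 (0.988), and Mndal by Tuba1a (0.992), Psph (0.990) and Tmem171 (0.989). Aim2 was followed by another set, Fam120b (0.992), Cryl1 (0.991) and Scp2 (0.989). The mean standardised profile of the 6 genes was closest to Prss46 (0.993), Tuba1a (0.988), Ly6a (0.986), Ifi47 (0.983), Pstpip1 (0.983), Nectin4 (0.983), Usp18 (0.982) and Crabp2 (0.978). On the HF arrays the lowest above-background signals were -4.09 and -4.51. Prss46 (-4.92 and -4.90), Ly6a (-5.21 and -4.95) and Clec4b1 (-4.47 and -5.63) lay below them. Nectin4 lay below such limits on control replicate 2 and on all HF and LPS+HF arrays, so it was kept through its LPS arrays. The r values of these genes rest in part on signals below background.

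Levels are given for Usp18 and Ifi47, picked by hand from these lists. Prss46 was closer than either to Ifi211 and to the mean profile. Usp18 read 2.77 and 2.43 in control, 3.92 and 3.77 in LPS, 0.91 and 0.77 in HF, and 1.78 and 1.47 in LPS+HF cells, the same order of groups as Ifi211. Ifi47 read 0.67 and -0.01 in control, 1.09 and 1.26 in LPS, -1.33 and -1.37 in HF, and -0.43 and -0.97 in LPS+HF cells. In both genes no neighbouring groups overlapped.

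Genes of cytosolic DNA sensing, from DNA-binding sensors to the interferon regulators they feed, formed a list of 24, of which 22 were tested; the others were not kept by the filter on dim probes. With HF added to LPS 3 fell, 1 rose and 18 did not pass, beside 3.25% of all genes lower and 2.89% higher. The list's median was 0.20 log2 against -0.07 over all genes, and 14 of the 22 differences were above 0. Irf7, the transcription factor that amplifies interferon production, read 0.78 and 1.95 in control, 4.52 and 4.52 in LPS, -0.18 and -0.17 in HF, and 1.85 and 1.49 in LPS+HF cells. It fell by 2.85 ± 0.37 log2 (limma adjusted p = 0.017). Zbp1, a sensor of left-handed nucleic acids, fell by 2.49 ± 0.26 log2 (adjusted p = 0.011), and Trex1, the exonuclease that clears cytosolic DNA, by 1.56 ± 0.16 log2 (adjusted p = 0.011). Prkdc, the catalytic subunit of the DNA-dependent protein kinase, rose by 0.92 ± 0.19 log2 (adjusted p = 0.047).

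In LPS minus control 4 genes of this list rose and 1 fell, beside 4.77% of all genes higher and 6.30% lower. Besides Irf7 (3.15 ± 0.37 log2), Zbp1 (2.67 ± 0.26) and Trex1 (1.61 ± 0.16), these were Ikbke, a kinase that activates interferon regulatory factors (2.02 ± 0.18), and Rnaseh2c, a subunit of the RNase that removes ribonucleotides from DNA (2.01-fold lower, SE 0.19 log2); the last 2 were picked after their values were seen. In HF minus control 0 passed in limma, beside 0.890% of all genes, and 8 had an unadjusted p under 0.05, as had 19.6% of all genes. Relative to HF alone, LPS+HF cells had 2 higher genes, beside 0.904% of all genes: Zbp1 (1.90 ± 0.26 log2) and Ikbke (2.18 ± 0.18). In the interaction 0 passed, beside 0.0534%, and 4 had an unadjusted p under 0.05, against 11.6% of all genes. Counts again changed when single arrays were left out, as did the share of all genes called. For fits that leave 1 array in a group, the counts of this list are given only with the processing settings below. Nothing is read from them.

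Inflammasome genes, the receptors, adaptor, caspases and cytokines among which Aim2 acts, formed a list of 17, of which 16 were tested. With HF added to LPS 2 fell and 14 did not pass, beside 3.25% of all genes lower and 2.89% higher. The list's median was -0.39 log2 against -0.07 over all genes. Il1b, the cytokine that caspase 1 matures, read -3.88 and -4.48 in control, 1.76 and 2.17 in LPS, -4.23 and -4.04 in HF, and -0.31 and -0.43 in LPS+HF cells. It fell by 2.33 ± 0.25 log2 in LPS+HF minus LPS (limma adjusted p = 0.012). Naip5, a receptor for bacterial flagellin, fell by 0.83 ± 0.17 log2 (adjusted p = 0.049).

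In LPS minus control 5 of the 16 rose, beside 4.77% of all genes: Il1b by at least 62.9-fold, Il1a by 4.97 ± 0.35 log2, Casp4 by 2.58 ± 0.24, Casp1 by 1.23 ± 0.13 and Naip2 by 0.86 ± 0.20; all but Il1b were picked after their values were seen. Casp1 and Casp4 encode inflammatory caspases, Il1a the cytokine interleukin 1 alpha, and Naip2 a receptor for bacterial secretion systems. Relative to HF alone, 3 were higher in LPS+HF cells, beside 0.904% of all genes: Il1b by 3.77 ± 0.25 log2, Il1a by at least 18.1-fold and Casp4 by 1.88 ± 0.24. On HF replicate 1 the Il1b signal of -4.23 lay below that array's lowest above-background signal of -4.09. The Il1b difference from HF therefore rests in part on a signal below background. In HF minus control 0 passed in limma, beside 0.890% of all genes, and 3 had an unadjusted p under 0.05, against 19.6% of all genes. In the interaction 0 passed, beside 0.0534%, and 4 had an unadjusted p under 0.05, against 11.6%. The counts of this list also changed when single arrays were left out, as did the share of all genes called.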

How the data were processed

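Per the file headers, Agilent Feature Extraction (version 11.5.1.1) made the intensity values, background-subtracted and trend-corrected, for each of 8 arrays (1 slide, 1 scan; array design on mm9). The authors' deposited series matrix holds log2 values; recomputing it showed a shift to each array's 75th percentile and centring of every probe on its median. The processed signal was converted to log2, averaged over a probe's spots without outlier flags, and reduced by the 75th percentile of its array. Kept were 30345 probes that both arrays of some group showed well above background, and a gene's kept probe with the highest mean represents it (22460 genes, 13799 with a symbol). A probe kept through a single group is high there by selection. This holds in LPS cells for the Ifi209 probes, for A_55_P2036627 of Ifi208 and for the probe of Nectin4. Of 55681 probes, 28020 (50.3%) got a symbol through RefSeq (GRCm38.p6).

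Group means were fitted over all 8 arrays with limma 3.58.1 (R 4.3.3; 4 residual and 2.04 prior degrees of freedom), two-sided, with Benjamini-Hochberg adjustment at 0.05; the fit was tested on simulated data. The number of arrays limits the precision. Where both arrays of a group were below background, "at least" folds were computed from a substitute signal. Per array it was the higher of the probe's signal and the lowest signal of any probe above background. A given probe can have a higher limit, and the true fold can then be smaller than the "at least" fold.

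The family members, the lists of DNA sensing and inflammasome genes and the tests were chosen with earlier results of these data known. Named are all listed genes, other cluster genes with a probe, up to 4 list genes that passed with the largest difference in LPS+HF minus LPS, and the 3 genes most correlated with each measured member and 8 with their mean profile. Alternatives were normexp (offset 50, on median signals) with quantile normalization, quantile normalization, median scaling, the authors' matrix, other filters and probe rules, a trended robust variance, a replicate block, a fit on the compared arrays alone, a spatial correction (windows of 30 rows and 15 columns), and leaving out arrays. A block for slide or scan could not be fitted. Python 3.11.15, numpy 2.4.6, pandas 2.3.3 and matplotlib 3.10.9 were used.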

Additional observations from a re-analysis of the deposited data

How the results depend on the processing

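Counts of genes passed, of the 6 measured family members, changed with the settings as follows, and a cause was not tested. The percentage in brackets is the share of all genes called in that setting, in either direction, which changed too. Counts are not given for fits that leave 1 array in a group. LPS minus control (3, beside 11.1%): 2 with normexp (4.49%), median scaling (3.67%), no filter on dim probes (2.24%) and the replicate block (7.48%), Ifi204 lost each time. It was also 2 with probes above background on all arrays (15.4%, Ifi209 not tested). It was 4 with the spatial correction (28.2%, Aim2 gained as lower) and 0 with only the arrays compared (0.294%). HF minus control (2, beside 0.89%): 0 with the normexp background correction (0.0356%), without the filter on dim probes (0.0353%) and with only the arrays compared (0%). It was 1 with median scaling (0.165%) and with the replicate block (0.205%), and 5 with the spatial correction (9.94%). LPS+HF minus LPS (4, beside 6.14%): 2 with median scaling (0.886%) and without the filter (0.462%), Ifi204 and Mndal lost. It was 3 with normexp (1.05%) and with the replicate block (2.61%), Ifi204 lost. It was 5 with probes above background on all arrays (9.07%), where Ifi209 was not tested and Ifi207, lower, and Aim2, higher, were gained. It was also 5 with a trended robust variance (7.68%, Ifi207 gained, all lower). It was 6 with only the arrays compared (32.9%) and with the spatial correction (27.5%), with Aim2 higher and the others lower both times. LPS+HF minus HF (0, beside 1.28%): 1 with median scaling (0.69%) and 3 with the spatial correction (4.59%). Interaction (0, beside 0.0534%): 1 with each probe on its own (0.0527%) and with the spatial correction (2.93%), both times Ifi209. Among the 30 member differences, those that passed kept their sign under each of the 21 alternatives in which the gene was tested. These alternatives include 8 that each left out 1 array. Some differences that did not pass changed sign, among them the interaction of Ifi207 (5 fits) and LPS+HF minus HF of Aim2 (3 fits).

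Of the DNA sensing genes, 5 passed in LPS minus control: 3 with normexp, 0 with only the arrays compared, 13 with the spatial correction, 9 without both marked arrays, and 0 to 11 without 1 array. In HF minus control (0, beside 0.89%) it was 1 with probes above background on all arrays (1.16%) and with probes of a gene averaged (1.1%). It was also 1 there with a trended robust variance (1.04%), and 7 with the spatial correction (9.94%). In LPS+HF minus LPS (4) it was 2 with normexp and without the filter, 0 with median scaling, 15 with only the arrays compared, with the spatial correction and without both marked arrays, and 0 to 14 without 1 array. In LPS+HF minus HF (2, beside 1.28%) it was 1 with normexp (0.378%), median scaling (0.69%), no filter (0.342%) and the replicate block (0.882%). It was 4 there with the spatial correction (4.59%). In the interaction (0) it was 0 to 10 without 1 array.

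Of the inflammasome genes, 5 passed in LPS minus control: 3 with normexp (4.49% of all genes) and 2 with only the arrays compared (0.294%). In HF minus control (0) it was 1 with the spatial correction (9.94%). In LPS+HF minus LPS (2) it was 1 with median scaling (0.886%), no filter (0.462%), each probe on its own (5.99%) and the replicate block (2.61%). It was 5 there with a trended robust variance (7.68%), and 8 with only the arrays compared (32.9%) and the spatial correction (27.5%). In LPS+HF minus HF (3) it was 1 with probes above background on all arrays (1.26%) and 5 with the spatial correction (4.59%). In the interaction (0) it was 2 with the spatial correction (2.93%).

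The replicate numbers did not pair the samples: replicate differences of 2 groups correlated at -0.08 to 0.25 over genes. In fits without 1 array, the remaining array of that group takes its spread from the other groups. Over genes, replicate differences had an SD of 0.99 log2 in control, 0.28 in LPS, 0.52 in HF and 0.34 in LPS+HF cells, so a pooled SE is narrow for comparisons with control. Ifi209 with HF and the dim probes of Ifi208 are limited by signal near background.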
